A study of Mus musculus with 70 samples.

Results

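Pim1 and 6 genes known as glucocorticoid targets (Fkbp5, Ddit4, Tsc22d3, Sgk1, Per1 and Zbtb16) were followed through mouse microglia, the resident macrophages of the brain. They are 7 of the 25806 genes in the count tables and were matched by gene symbol. They were chosen by the measured values of Pim1, Fkbp5 and Ddit4, which stood high in tamoxifen-treated Cre- pups given UC2288. The values of those libraries against their vehicle controls are therefore a description, with no test.

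The study asked how tamoxifen, which switches on the Cre recombinase carried in the Cx3cr1 locus of CreERT2 knock-in mice, alters microglia in the Littman and the Jung line. The 70 libraries fell into 17 groups and 5 tables, each table normalised and fitted on its own. In the vehicle and UC2288 table all 21 libraries came from pups: UC2288 with tamoxifen in Cre- (n = 3) and Cre+ (n = 5) pups, vehicle with tamoxifen in Cre+ (n = 4) and Cre- (n = 5) pups, and vehicle with oil in Cre+ pups (n = 4). UC2288 was given at 100 mg/kg to inhibit CDKN1A (p21), a cell cycle inhibitor, with 2% DMSO in the corn oil, and whether vehicle pups received the same DMSO is not stated.

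Cre+ pups of that table were heterozygous for Cx3cr1CreERT2(Litt), so 1 Cx3cr1 allele was lost in all of them, oil pups included, and Cre- pups were Cx3cr1+/+. The postnatal table held tamoxifen-treated Littman Cre+ (n = 5) and Cre- (n = 5) pups with the same genotypes. It also held heterozygous Cx3cr1CreERT2(Jung) pups carrying Rosa26YFP, given tamoxifen (n = 4) or oil (n = 5). Adults formed the other tables: Littman with tamoxifen (n = 3) or oil (n = 4), Jung with tamoxifen (n = 4) or oil (n = 4), and a table titled for BLZ945, an inhibitor of the CSF1 receptor, with Littman tamoxifen (n = 4) and oil (n = 3) and Jung tamoxifen (n = 4) and oil (n = 4). The BLZ945-titled Jung mice carried Rosa26YFP as well. For the adult Jung and the BLZ945-titled Jung libraries the treatment labels contradict the titles on BLZ945, and the titles were used. Only the difference of tamoxifen effects between the Littman and Jung groups of the BLZ945-titled table crossed the disputed labels. Pups received tamoxifen as 0.1 mg on P1 and P3, or else as 0.2 mg on P5 and P7, and were 8 or 14 days old, without a record of which pup had which; adults of 6 to 15 weeks received 4 mg doses. The labels do not say that replicates are separate animals, so the p-values measure the spread between libraries only.

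Glucocorticoids are adrenal steroids that enter cells and bind the glucocorticoid receptor, encoded by Nr3c1, which is held ready in the cytoplasm by Hsp90 and its co-chaperones. The bound receptor moves into the nucleus, attaches to paired AGAACA-type sequences near its target genes and switches them on, while it also represses many inflammatory genes. Microglia express this receptor strongly. Fkbp5 encodes a co-chaperone that lowers the receptor's affinity for hormone and so closes a feedback loop. Tsc22d3 encodes GILZ, an anti-inflammatory mediator, Sgk1 a kinase related to AKT, and Ddit4 (REDD1) an inhibitor of mTORC1 that also responds to hypoxia and cell stress. Per1 is a clock gene and Zbtb16 a transcription factor. Pim1 is a serine/threonine kinase best known as a target of cytokine receptors acting through STAT proteins, and p21 is among its substrates.

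Promoter sequences of the members were taken from RefSeq (GRCm38.p6) as 300 bases, 250 before and 50 after each start site. Of the 7 members 6 had entries, with 15 start sites. Those shown are 3 of the 4 members that peaked in 1 UC2288 library (Fkbp5, Ddit4 and Per1) and the Sgk1 start site that held the full receptor element, chosen after their values were seen. Capitals mark matches, on either strand, to the element GNACANNNTGTNC, its single arm AGAACA, the STAT motif TTCNNNGAA or the E-box CACGTG bound by clock factors.
Fkbp5, chr17:28486100-28486399, minus strand: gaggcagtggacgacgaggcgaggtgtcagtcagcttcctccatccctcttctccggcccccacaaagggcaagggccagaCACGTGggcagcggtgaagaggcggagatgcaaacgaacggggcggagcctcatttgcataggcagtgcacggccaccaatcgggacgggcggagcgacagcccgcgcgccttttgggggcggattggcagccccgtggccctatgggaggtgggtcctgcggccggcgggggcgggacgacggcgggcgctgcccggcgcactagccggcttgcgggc
Ddit4, chr10:59951721-59952020, minus strand: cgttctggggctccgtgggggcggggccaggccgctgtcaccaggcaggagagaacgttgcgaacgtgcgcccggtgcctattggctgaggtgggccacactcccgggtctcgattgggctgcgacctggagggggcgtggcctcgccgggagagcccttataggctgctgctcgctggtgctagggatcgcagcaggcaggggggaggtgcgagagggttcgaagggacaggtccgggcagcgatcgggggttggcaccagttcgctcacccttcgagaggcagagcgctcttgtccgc
Per1, chr11:69098699-69098998, plus strand: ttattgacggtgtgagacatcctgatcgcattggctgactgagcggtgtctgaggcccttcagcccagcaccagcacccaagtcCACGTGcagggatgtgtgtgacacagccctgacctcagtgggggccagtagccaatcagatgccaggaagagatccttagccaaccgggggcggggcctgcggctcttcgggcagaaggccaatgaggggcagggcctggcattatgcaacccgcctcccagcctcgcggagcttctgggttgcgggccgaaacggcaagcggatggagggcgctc
Sgk1, chr10:21993640-21993939, plus strand: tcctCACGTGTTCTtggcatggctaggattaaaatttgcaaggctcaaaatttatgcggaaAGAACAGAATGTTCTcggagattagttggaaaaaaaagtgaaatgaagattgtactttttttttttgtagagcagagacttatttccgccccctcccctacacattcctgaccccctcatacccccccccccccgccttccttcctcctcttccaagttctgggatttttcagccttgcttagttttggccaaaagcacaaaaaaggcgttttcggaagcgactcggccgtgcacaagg
The Sgk1 sequence held the full element GAACAGAATGTTC from -188 to -176 relative to its start, with 3 single arms, of which 2 overlap it and the other overlaps the E-box. That element was present in 0.4749% of 32851 mouse promoters of this length, and the single arm in 18.97%. An E-box stood at -169 to -164 in Fkbp5 and at -166 to -161 in Per1, against 7.15% of all promoters. The Ddit4 window held none of the 4 motifs, the STAT motif (8.298% of promoters) included. Of the members whose windows are not printed, Tsc22d3 held a STAT motif at -207 to -199 of one start site and a single arm at -185 to -180 of another, and Pim1 held an E-box at -58 to -53 of one start site. These matches describe letters, and receptor elements farther from the start were not searched.

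All members except Zbtb16 were measured, at low depth. Library totals in the vehicle and UC2288 table ran from 116083 to 277680 counts, and over all 70 libraries from 116083 to 450461, so a gene at 20 CPM (counts scaled to the TMM-adjusted library total) rests on a few molecules. Zbtb16 had 1 count in each of 4 tables, 4 in all, and no row in the postnatal table, and is not compared. Tsc22d3 and Per1 fell below the low-count filter in the vehicle and UC2288 table. They are given there as counts, with ratios of pooled counts and exact 95% intervals that cover counting error only. In bulk libraries, fewer cells of a type and less RNA per cell cannot be told apart.

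A few libraries stood apart. UC2288 Cre- replicate 1 held neutrophil transcripts although the sort excluded Ly6G+ cells: S100a9 had 51 counts, S100a8 44, Ngp 28, Lcn2 18, Camp 17 and Ltf 8, and all 6 were at 0 in the other 20 libraries of its table. The summed neutrophil markers came to 654 CPM there and to at most 19.4 CPM in the others. Among UC2288 Cre+ libraries, replicate 3 did not resemble the other 4: its summed microglia markers were 20417 CPM, a level otherwise seen in oil pups (18986 to 22681 CPM), while the group's median was 8588 CPM and vehicle tamoxifen Cre+ libraries ran from 6940 to 7694 CPM. Vehicle Cre- replicate 5 carried red blood cell transcripts (445 CPM summed). Cx3cr1 itself followed the labels, with 679 to 1859 CPM in UC2288 Cre+, 771 to 1024 CPM in vehicle tamoxifen Cre+ and 1360 to 1602 CPM in oil Cre+ libraries, against 2477 to 3279 CPM in UC2288 Cre- and 2495 to 2888 CPM in vehicle Cre- libraries.

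In Cre- pups, UC2288 libraries carried more Pim1 in every replicate, while the higher Fkbp5 and Ddit4 rested on 1 library. Pim1 had 33, 8 and 15 counts (143, 61.2 and 78.5 CPM) in UC2288 Cre- libraries, against 3, 3, 4, 4 and 2 counts (19.0, 15.7, 19.4, 22.5 and 10.7 CPM) in vehicle Cre- libraries. The 3 UC2288 values lay above all 5 vehicle values. Their means were 94.2 ± 43.1 CPM and 17.5 ± 4.48 CPM (SD), a fitted log2 fold change of 2.47 ± 0.40 (SE), or 5.54-fold.

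Fkbp5, the feedback co-chaperone, had 368, 22.9 and 31.4 CPM in UC2288 Cre- libraries, against 25.3, 31.3, 24.2, 39.5 and 42.9 CPM in vehicle Cre- libraries. Replicate 1 supplied 85 of the group's 94 counts, and the other UC2288 libraries lay within or just below the vehicle range. Ddit4, the mTORC1 inhibitor, had the same shape, with 242, 22.9 and 5.23 CPM in UC2288 Cre- libraries, against 12.7, 5.22, 9.68, 5.64 and 42.9 CPM in vehicle Cre- libraries. Here replicate 1 supplied 56 of 60 counts, and the highest vehicle value belonged to the library with red blood cell transcripts. The fitted log2 fold changes were 2.23 ± 0.54 for Fkbp5 and 2.67 ± 0.70 for Ddit4; without UC2288 replicate 1 they were -0.22 and -0.24, while that of Pim1 was 1.99.

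Per1, the clock gene, had 15, 1 and 5 counts in UC2288 Cre- libraries, against 0, 0, 0, 1 and 1 in vehicle Cre- libraries. The groups met at 1 count and stood apart on the scaled values alone, where the lowest UC2288 library had 7.64 CPM and the highest vehicle library 5.64 CPM. The pooled ratio was 17.5 (4.27 to 154) from 21 and 2 counts. Sgk1, the AKT-related kinase and the member with the full receptor element, did not share the pattern: it had 82.3, 138 and 141 CPM in UC2288 Cre- libraries, against 120, 193, 145, 67.6 and 209 CPM in vehicle Cre- libraries, with the lowest UC2288 value in replicate 1 and a log2 fold change of -0.31 ± 0.32. Tsc22d3 (GILZ) had 6, 1 and 2 counts in UC2288 Cre- libraries, against 2, 1, 1, 2 and 5 in vehicle Cre- libraries, a pooled ratio of 1.36 (0.499 to 3.61). In this contrast, which chose the members, 4.87% of the 4953 genes tested had groups that did not overlap and 0.0202% passed an adjusted p of 0.05, and nothing is read from these shares.

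**Figure D1:**
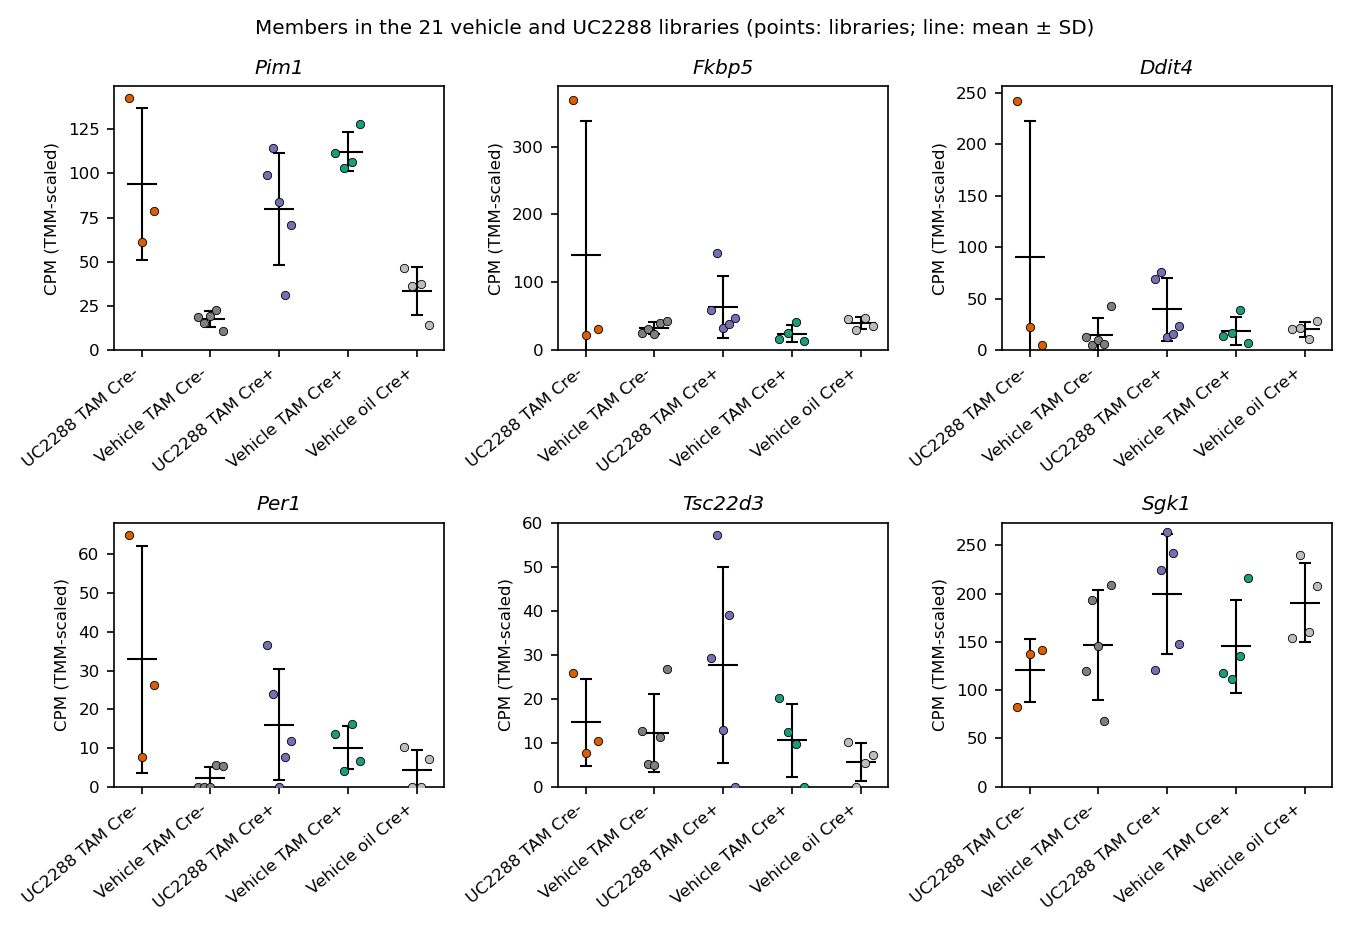
Levels of 6 members (TMM-scaled CPM, linear axis) in the 21 libraries of the vehicle and UC2288 table; points are libraries, bars the mean and SD of a group, cut off at 0. Pim1 stands high in all 3 UC2288 Cre- libraries (61.2 to 143 CPM) and in vehicle tamoxifen Cre+ libraries (103 to 128 CPM), while for Fkbp5 and Ddit4 1 UC2288 Cre- library stands far above the rest (368 and 242 CPM).

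The neutrophil transcripts were in that same library, UC2288 Cre- replicate 1. Nr3c1, the receptor, was at 156 CPM there, the highest of the 21 libraries, and was 1 of 16 tested receptor machinery genes to peak there. Cebpb and Mertk, 2 of 10 tested glucocorticoid response genes, and Stat3, 1 of 5 Pim and STAT-linked genes, also peaked there. The library was the highest of its table for 4 of 6 members and for 4.97% of all genes tested, and nothing is read from this count, since Pim1, Fkbp5 and Ddit4 were chosen on its group. Whether neutrophil RNA contributed to its Fkbp5 and Ddit4 was not tested. The study held 3 other libraries with over 100 CPM of these markers, in tables scaled separately, so their levels are given only beside their own groups. BLZ945 Littman tamoxifen replicate 1, with 2600 CPM of neutrophil markers, had 88.1 CPM of Fkbp5 and 22.0 CPM of Ddit4, the lowest of its group for both. BLZ945 Littman oil replicate 3, with 3232 CPM, had 58.1 CPM of Fkbp5 and 4.84 CPM of Ddit4, again the lowest of its group. Postnatal Littman Cre- replicate 2, with 1182 CPM, had 113 CPM of Fkbp5 and 76.9 CPM of Ddit4, within the range of its group.

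**Figure D2:**
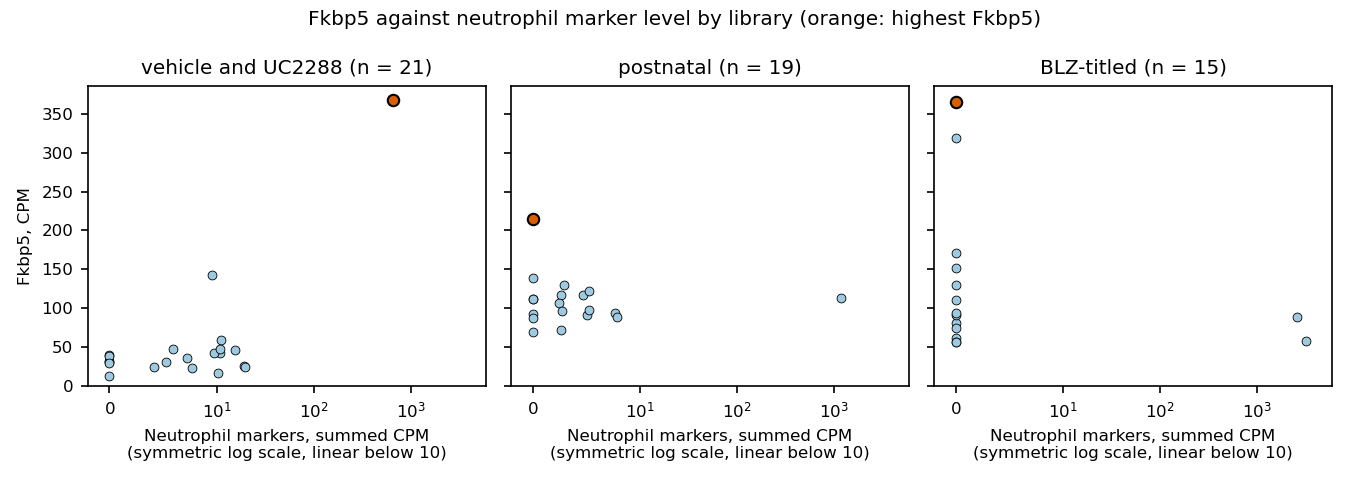
Fkbp5 (CPM) against summed neutrophil markers (CPM, symmetric log axis) in the 3 tables that hold libraries above 100 CPM of those markers; each point is 1 library. UC2288 Cre- replicate 1 (654 CPM of markers) has the most Fkbp5 of its table at 368 CPM. The libraries with 1182, 2600 and 3232 CPM of markers have 113, 88.1 and 58.1 CPM of Fkbp5. Each table was scaled on its own, so levels are not compared across panels.

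In Cre+ pups, none of the 4 tested members passed the test between UC2288 and vehicle (edgeR, adjusted p below 0.05), 1 reached an unadjusted p below 0.05 and DESeq2 called 0; over all genes edgeR called 0.727%. Pim1 had 98.9, 115, 83.6, 31.2 and 70.9 CPM in UC2288 Cre+ libraries, against 111, 103, 107 and 128 CPM in vehicle Cre+ libraries. The ranges overlapped and the mean was lower with UC2288 (79.8 ± 31.7 and 112 ± 11.0 CPM; log2 fold change -0.43 ± 0.28, adjusted p = 0.444). The log2 fold change of Pim1 was therefore positive in Cre- and negative in Cre+ pups, and the difference between them was not tested, because the first chose the gene.

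Fkbp5 had 58.6, 143, 32.2, 39.0 and 47.3 CPM in UC2288 Cre+ libraries, against 16.9, 24.7, 42.0 and 13.5 CPM in vehicle Cre+ libraries. Of the UC2288 libraries 3 of 5 lay above all vehicle libraries, and the log2 fold change was 1.34 ± 0.58 (unadjusted p = 0.0258, adjusted p = 0.233), or 0.80 without replicate 2. Ddit4 had 69.6, 76.4, 12.9, 15.6 and 23.6 CPM in UC2288 Cre+ libraries, against 13.5, 16.5, 38.7 and 6.74 CPM in vehicle Cre+ libraries. Like Fkbp5, Ddit4 passed the low-count filter in this table only through UC2288 libraries, Cre- replicate 1 among them. It stayed in 7 of the 9 fits that left out 1 library of this comparison. Its 2 highest values were in the 2 libraries highest for Fkbp5, and its log2 fold change was 1.04 ± 0.68 (adjusted p = 0.450). The most Tsc22d3 was in those 2 libraries as well, 8 and 12 of the group's 27 counts, against 12 counts over the vehicle libraries, a pooled ratio of 2.40 (1.17 to 5.20); the ratio of Per1 was 1.74 (0.780 to 4.09) from 18 and 11 counts. Their neutrophil markers were low, at most 11.0 CPM in any UC2288 Cre+ library.

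Sgk1 averaged 200 ± 62.1 CPM in UC2288 Cre+ libraries and 145 ± 48.1 CPM in vehicle Cre+ libraries (log2 fold change 0.45 ± 0.27, adjusted p = 0.398), and Nr3c1 99.8 and 82.1 CPM (adjusted p = 0.634). Leaving out UC2288 Cre+ replicate 3, the library with the microglia marker level of oil pups, gave log2 fold changes of -0.43 for Pim1, 1.49 for Fkbp5, 1.25 for Ddit4 and 0.33 for Sgk1, with 0 called. Cdkn1a, which encodes the protein UC2288 was given to inhibit, was at 623 ± 117 CPM in UC2288 Cre+ and 738 ± 161 CPM in vehicle Cre+ libraries (log2 fold change -0.26, adjusted p = 0.608).

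Pim1 also rose with tamoxifen in vehicle-treated Cre+ pups, a comparison that shares no library with the one that chose it. Pim1 passed the low-count filter in the vehicle and UC2288 table only through UC2288 libraries and vehicle tamoxifen Cre+ libraries. No oil Cre+ or vehicle Cre- library reached the cutoff, so its being tested depended on groups where it was high. Without the filter Pim1 was called as well. The vehicle tamoxifen Cre+ libraries, at 103 to 128 CPM, all lay above the oil Cre+ libraries, which had 46.3, 36.4, 37.3 and 14.4 CPM. The means were 112 ± 11.0 and 33.6 ± 13.6 CPM (log2 fold change 1.69 ± 0.35, 3.23-fold, adjusted p = 0.000402), and leaving out any 1 library kept the log2 fold change between 1.47 and 1.89. It was the only 1 of the 4 tested members to pass, in a comparison where 31.4% of all genes passed and 31.7% did not overlap. Fkbp5 (24.3 and 39.8 CPM, adjusted p = 0.506), Ddit4 (18.9 and 20.4 CPM, adjusted p = 0.955) and Sgk1 (145 and 191 CPM, adjusted p = 0.309) did not pass.

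Against vehicle Cre- pups with the same tamoxifen, Pim1 was likewise higher in vehicle Cre+ pups, at 112 ± 11.0 and 17.5 ± 4.48 CPM (log2 fold change 2.67 ± 0.36, 6.34-fold, adjusted p = 8.22e-07), without overlap; it was the 1 of 4 tested members to pass, where 27.2% of genes passed and 24.8% did not overlap. This comparison shares its 5 vehicle Cre- libraries with the contrast that chose Pim1, and the limit of the low-count filter given above holds here too. Fkbp5 (log2 fold change -0.30, adjusted p = 0.762), Ddit4 (0.45, adjusted p = 0.718) and Sgk1 (-0.04, adjusted p = 0.933) did not pass, and Per1 had 11 and 2 counts, a pooled ratio of 5.08 (1.11 to 47.1). The postnatal Littman pups, with the same genotypes and tamoxifen, did not show this Pim1 difference. Pim1 averaged 29.1 CPM in their Cre+ and 30.9 CPM in their Cre- libraries (edgeR, log2 fold change -0.08, adjusted p = 0.948). Beside Pim1 in the vehicle and UC2288 table, summed monocyte markers were also higher in tamoxifen Cre+ libraries (90.1 to 301 CPM with UC2288, 94.3 to 253 CPM with vehicle) than in oil Cre+ libraries (0 to 21.8 CPM) and vehicle Cre- libraries (0 to 26.1 CPM). Only 1 of the 5 summed markers passed the low-count filter in that table. Their part in the Pim1 level was not tested; in the UC2288 Cre- libraries, where Pim1 was at 61.2 to 143 CPM, these markers summed to 0 to 56.3 CPM.

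**Figure D3:**
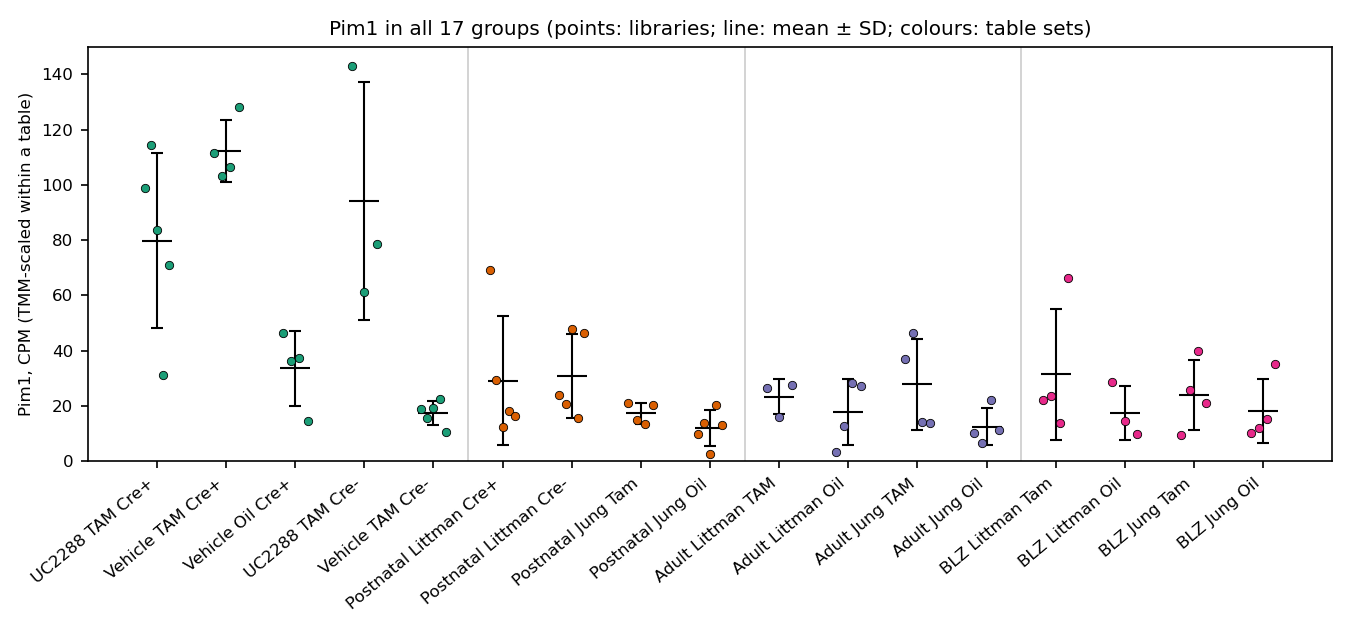
Pim1 (TMM-scaled CPM) in all 70 libraries by group, each table scaled on its own; points are libraries and bars group means with SD. The 3 groups with the highest means are vehicle tamoxifen Cre+, UC2288 Cre- and UC2288 Cre+ (112, 94.2 and 79.8 CPM), and the other 14 groups average 12.0 to 33.6 CPM.

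The order of Pim1 means over the 17 groups put vehicle tamoxifen Cre+ pups first (112 CPM), UC2288 Cre- next (94.2 CPM) and then UC2288 Cre+ (79.8 CPM), and the ranges of these 3 neighbours overlapped, as did those of UC2288 Cre+ and oil Cre+ pups. Oil Cre+ pups (33.6 CPM) headed the remaining 14 groups, which ran down to postnatal Jung oil (12.0 CPM), each overlapping the next. Levels in different tables were scaled separately, so this order across tables is a description. Fkbp5 was ordered otherwise: adult-titled Jung oil and tamoxifen (238 ± 63.9 and 195 ± 38.3 CPM) and BLZ945 Littman tamoxifen (231 ± 132 CPM) averaged highest, and the vehicle groups of the pup table lowest (24.3 to 39.8 CPM). Sgk1 means ran from 120 CPM in UC2288 Cre- pups to 682 CPM in adult Littman tamoxifen mice.

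Of a list of 33 further glucocorticoid response genes, 10 passed the filter in the vehicle and UC2288 table. With UC2288 in Cre+ pups 0 were called by edgeR, 2 at an unadjusted p below 0.05 and 0 by DESeq2, with a median log2 fold change of 0.09 against 0.02 over all genes; in Cre- pups the median was -0.03 against -0.01. With tamoxifen in vehicle Cre+ pups, 2 of the 10 rose and 3 fell, with a median of -0.69 against 0.00 over all genes. Of all genes 31.4% passed there, 16.1% higher and 15.3% lower, and a list's count near those shares is no result about the list. Nfkbia, an inhibitor of NF-kB, rose (310 and 72.7 CPM, log2 fold change 2.09 ± 0.33, adjusted p = 1.24e-05), as did Cebpb (log2 fold change 1.08, adjusted p = 0.0142). Mt1, a metallothionein (61.4 and 168 CPM, adjusted p = 0.000235), Glul, glutamine synthetase (263 and 644 CPM, adjusted p = 3.44e-05), and Rgs2 (310 and 601 CPM, adjusted p = 0.00233) fell.

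Of the receptor machinery, 16 of 19 genes were tested with tamoxifen in vehicle Cre+ pups, and the counts of this and the following lists are to be read against the same 31.4% of all genes. The coactivators Ncoa2, Ep300 and Crebbp and the corepressor Ncor1 rose (Ep300 148 and 58.6 CPM, log2 fold change 1.32). Stip1 and Hspa8, chaperone proteins, and the coactivator Ncoa3 fell, Hspa8 at 501 and 804 CPM. Of 5 Pim and STAT-linked genes Junb rose, at 133 and 63.8 CPM, and Il6st fell; of 10 genes tied to mTOR, the pathway Ddit4 restrains, Eif4ebp1, Rptor and Rps6kb1 rose. Of 10 hypoxia and glycolysis genes Pgk1 fell (23.5 and 64.4 CPM), and of 5 integrated stress response genes Hspa5 rose and Psat1 fell. With UC2288 in Cre+ pups edgeR and DESeq2 called 0 of the 16 machinery genes, 3 at an unadjusted p below 0.05, and 0 in each of the 4 other lists, with 0 of the Pim and STAT-linked genes, 1 tied to mTOR, 0 of the hypoxia genes and 2 of the stress response genes at an unadjusted p below 0.05.

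In postnatal Littman pups, whose labels name neither UC2288 nor its vehicle, Ddit4 and Sgk1 fell. Between tamoxifen-treated Cre+ and Cre- pups 2 of 5 tested members passed, both lower in Cre+, where 7.8% of all genes passed and 3.24% were lower. Ddit4 had 21.5, 56.1, 26.9, 50.2 and 39.9 CPM in Cre+ libraries, against 120, 76.9, 12.6, 238 and 14.5 CPM in Cre- libraries. The Cre- libraries spread on both sides of the Cre+ range, with the highest in replicate 4. The log2 fold change was -1.26 ± 0.39 (adjusted p = 0.0308), and without Cre- replicate 4 it was -0.54 (adjusted p = 0.476); DESeq2 gave an adjusted p of 0.338.

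Sgk1 had 310, 658, 479, 456 and 328 CPM in postnatal Littman Cre+ libraries, against 763, 615, 593, 628 and 397 CPM in Cre- libraries. The ranges overlapped, and the log2 fold change was -0.43 ± 0.13 (adjusted p = 0.0297; 0.190 by DESeq2; 0.000287 to 0.143 when any 1 library was left out). Fkbp5 averaged 110 and 133 CPM (adjusted p = 0.381), Pim1 29.1 and 30.9 CPM (adjusted p = 0.948) and Tsc22d3 40.8 and 37.5 CPM (adjusted p = 0.919). Per1 had 29 counts in Cre+ and 55 in Cre- libraries, a pooled ratio of 0.483 (0.297 to 0.770). Nr3c1, the receptor, fell as well, at 220 ± 30.9 and 295 ± 24.1 CPM (log2 fold change -0.44 ± 0.11, adjusted p = 0.00488), beside summed microglia markers of 20013 to 25352 CPM in Cre+ and 26227 to 31044 CPM in Cre- libraries.

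Of the 14 response genes tested there, Cebpb rose (194 and 135 CPM, adjusted p = 0.0267), and 4 fell: Sult1a1 (19.0 and 45.6 CPM), Mertk (370 and 515 CPM), Tle3 and Glul. The list's median log2 fold change was -0.09, against 0.00 over all genes. Cre- replicate 4 of this table was picked for its Fkbp5, so its lead for that gene was fixed. It was the highest of its 19 libraries for Fkbp5, Ddit4, Tsc22d3 and Per1 (215, 238, 77.6 and 54.3 CPM), 4 of 6 members. There 4.9% of the genes tested peaked, Per1 not among those tested. The neutrophil marker sum of that library was 0. In postnatal Jung pups 0 of 5 tested members passed between tamoxifen and oil (1 at an unadjusted p below 0.05, 0 by DESeq2), and edgeR called 0.0848% of genes. Sgk1 had 398, 500, 484 and 458 CPM in tamoxifen libraries, against 539, 594, 589, 607 and 588 CPM in oil libraries; the groups did not overlap, as in 2.23% of genes, but the adjusted p was 0.834 (log2 fold change -0.34 ± 0.14).

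Among adult Littman mice given BLZ945, tamoxifen libraries averaged more Fkbp5 and Ddit4, unevenly, and neither gene passed the test. Fkbp5 had 88.1, 319, 152 and 365 CPM in tamoxifen libraries, against 80.9, 110 and 58.1 CPM in oil libraries. Of the tamoxifen libraries 3 of 4 lay above all oil libraries (log2 fold change 1.47 ± 0.38, unadjusted p = 0.000465, adjusted p = 0.174). Ddit4 had 22.0, 122, 32.2 and 540 CPM in tamoxifen libraries, against 33.3, 9.60 and 4.84 CPM in oil libraries, and replicates 2 and 4 lay above all oil libraries (log2 fold change 3.43 ± 0.81, adjusted p = 0.131; 1.84 without replicate 4).

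By edgeR 0 of 5 tested members passed there, 2 at an unadjusted p below 0.05 and 0 by DESeq2, where 0.0581% of all genes passed; without a low-count filter both Fkbp5 and Ddit4 passed (adjusted p = 0.000562 and 1.42e-13). Tamoxifen replicate 4 of this table was picked for its Fkbp5. It was the highest of its 15 libraries for Pim1, Fkbp5, Ddit4 and Tsc22d3 (66.4, 365, 540 and 128 CPM). That library led for 4 of 6 members, where 9.96% of the genes tested peaked, Pim1 not among those tested. It had no neutrophil transcript, the lowest microglia marker sum of the table (12149 CPM) and the highest sums of immediate early and dissociation genes (1469 CPM) and of integrated stress response genes (2180 CPM); their part in its member levels was not tested. In the BLZ945-titled Jung libraries 0 of 5 members passed (1 at an unadjusted p below 0.05, 0 by DESeq2; 0% of all genes). Per1 had 42.8, 51.7, 24.9 and 20.9 CPM with tamoxifen, against 5.11, 4.01, 15.3 and 4.42 CPM with oil. The groups did not overlap, as in 2.71% of genes (log2 fold change 2.24 ± 0.65, unadjusted p = 0.00174, adjusted p = 0.806). Per1 passed the low-count filter in this table only through tamoxifen libraries, Jung replicates 1 and 2 and Littman replicate 2. It stayed in 5 of the 8 fits that left out 1 library of this comparison. Between the Littman and Jung groups of this table the tamoxifen effect differed for none of the tested members by adjusted p (edgeR). The lowest adjusted p was 0.569, for Ddit4 (difference of log2 fold changes 2.55 ± 1.15, unadjusted p = 0.0341). Per1 had an unadjusted p of 0.0436. Line, Rosa26YFP and, by the treatment labels, BLZ945 differ together between these groups and cannot be told apart.

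In adult Littman mice without BLZ945 0 of 5 members passed (2 at an unadjusted p below 0.05, 0 by DESeq2; 0.0181% of all genes). Fkbp5 had 123, 115 and 183 CPM in tamoxifen libraries, against 94.8, 91.2, 94.0 and 61.2 CPM in oil libraries, without overlap, as in 4.25% of genes (log2 fold change 0.71 ± 0.25, adjusted p = 0.998). Ddit4 had 137, 63.9 and 143 CPM, against 91.5, 101, 37.6 and 30.6 CPM (log2 fold change 0.80, adjusted p = 0.998), and these ranges overlapped. In adult-titled Jung mice 0 of 5 members passed, with 0 at an unadjusted p below 0.05 and 0 by DESeq2, as did 0% of all genes. Oil replicate 2 of that table, again picked for its Fkbp5, was highest for 5 of 6 members, where 8.92% of genes peaked. They were Fkbp5 (292 CPM), Ddit4 (418 CPM), Tsc22d3, Sgk1 and Per1. Adult Littman tamoxifen replicate 3, picked the same way, was highest for 3 of 6, where 12.4% of genes peaked. The adult tables had no neutrophil marker counts.

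**Figure D4:**
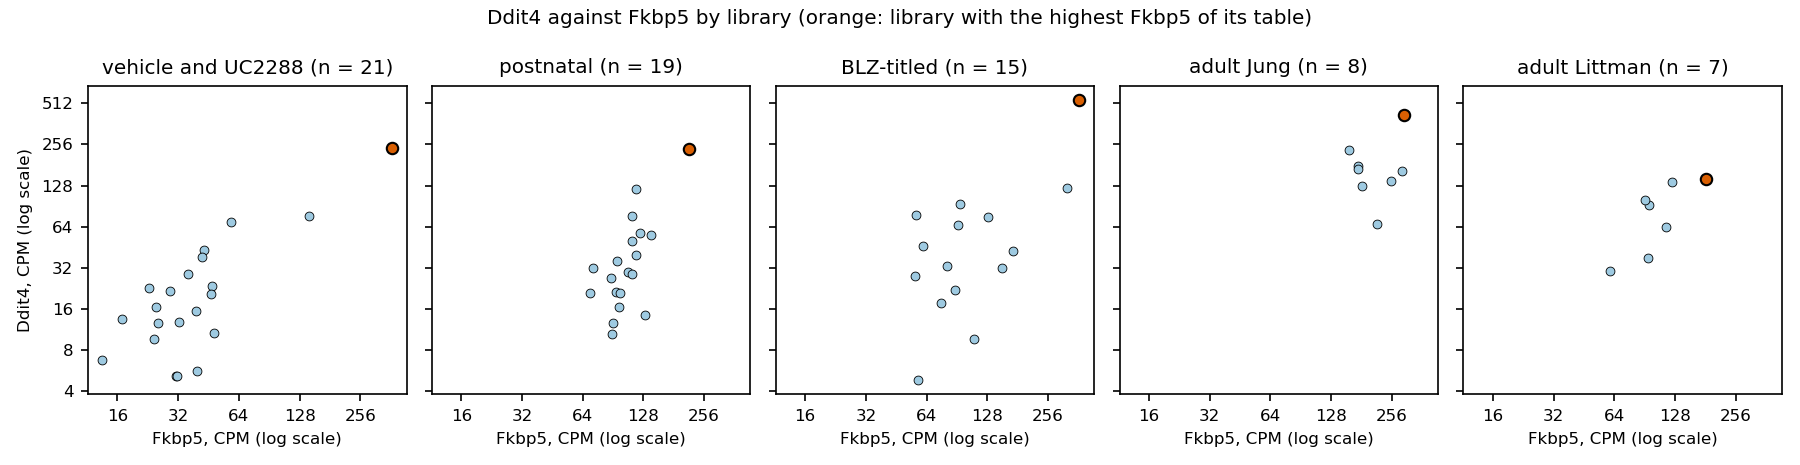
Ddit4 against Fkbp5 (TMM-scaled CPM, both axes logarithmic) in the 5 tables, 1 point per library, with the library highest for Fkbp5 in orange. In the 4 tables that did not choose the members that library is also the highest for Ddit4, from 143 CPM of Ddit4 in the adult Littman table to 540 CPM in the BLZ945-titled table; in the vehicle and UC2288 table the choice of members fixed this.

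In each of the 4 tables that did not choose the members, the library with the most Fkbp5 also had the most Ddit4, and these libraries belonged to tamoxifen and oil groups and to Cre+ and Cre- mice. The correlation of Fkbp5 with Ddit4 is a description over libraries that share a table, taken on the deviation of each library's log2 CPM from its group mean. It was computed again without the 2 libraries whose Fkbp5 deviation lay farthest from the median deviation. In the vehicle and UC2288 table, which chose both genes, Pearson's r was 0.835 (n = 21; Spearman's rho 0.739), and 0.676 without UC2288 Cre- replicate 1 and UC2288 Cre+ replicate 2. In the postnatal table r was 0.609 (n = 19; rho 0.409; 0.399 without 2), and it was 0.592 in the BLZ945-titled table (n = 15; rho 0.511; 0.187 without 2). It was 0.130 in the adult-titled Jung table (n = 8; rho -0.190; 0.475 without 2) and 0.638 in the adult Littman table (n = 7; rho 0.679; 0.004 without 2), so the relation rests on Littman tamoxifen replicates 1 and 4 in the BLZ945-titled table, and on tamoxifen replicate 2 and oil replicate 4 in the adult Littman table. In the vehicle and UC2288 table, which chose Fkbp5, its r with Per1 was 0.702 (rho 0.643, and 0.612 without 2). With Pim1 r was 0.518 (0.260 without 2) and with Tsc22d3 0.502 (0.348 without 2). With Sgk1 it was negative (r = -0.360, rho -0.432).

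Over the same 21 libraries and 4938 genes with a mean of at least 20 CPM, the gene most like Fkbp5 was Ddit4 (r = 0.843 on log2 CPM; 0.713 over the 18 libraries outside the UC2288 Cre- group), followed by Klf13 (0.725 and 0.561), Tlr7 (0.655 and 0.386), Gm49839 (0.625 and 0.344) and Ppp6r3 (0.623 and 0.430). This ranking includes the UC2288 Cre- values that chose both genes, so their first place is not independent of the choice. Over the 18 other libraries 99.9% of the genes had a lower r with Fkbp5 than Ddit4 had. Those 18 still hold the 5 vehicle Cre- libraries of the choosing contrast, and both genes passed the filter only through UC2288 libraries. That share is therefore not independent of the choice either. After Fkbp5, Ddit4 was most like Rbm26 (0.767 and 0.604), Arfgef1 (0.683 and 0.539) and Mlxip (0.682 and 0.618). Pim1 was most like other genes, Akap13 (0.845 and 0.888), Rptor (0.829 and 0.826), Rrbp1 (0.823 and 0.867), Apobec3 (0.817 and 0.865) and Herc1 (0.815 and 0.813), and its values changed little when the UC2288 Cre- libraries were left out. Unlike the correlations on deviations above, these r were taken without subtracting group means. Differences between groups, such as that of Pim1 with tamoxifen in Cre+ pups, therefore enter them.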

How the data were processed

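Libraries were made by CEL-Seq2, a 3' counting method with molecular identifiers, from 500 sorted CD11b+ CD45+ Ly6G- CD206- cells each. The deposited tables hold whole-number counts per gene, without normalisation; no header states that they are deduplicated. UMI-tools, Trim Galore, HISAT2, featureCounts and GRCm38 appear in the submitters' processing notes, with neither versions nor a strand setting in the sources used here. Pim1 and Fkbp5 overlap antisense genes, so reads of both strands may be counted together.

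Each table was fitted with edgeR 4.0.16 in R 4.3.3 (TMM, filterByExpr at a minimum count of 10, all groups fitted together by quasi-likelihood, p-values adjusted by Benjamini-Hochberg over the tested genes, calls at adjusted p below 0.05). DESeq2 1.42.0 was an alternative. Log2 CPM used a prior count of 2. The fits were tested on simulated data. Python 3.11.15 and pandas 2.3.3 joined GENCODE and RefSeq annotation.

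All members were named in every comparison, and of each gene list up to 4 called genes with the largest change; Nr3c1 was always named. Genes that peaked in UC2288 Cre- replicate 1, and list genes beyond those 4, were picked after their values were seen. Some genes that these rules name are not reported here. The members and lists were chosen with earlier results of these data known. No libraries had identical values.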

Additional observations from a re-analysis of the deposited data

Results flagged for a closer look

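Of 80 sets of a member in a group of 4 to 10 libraries, 7 held a library separated from the others by most of the group's range, by Dixon's test at the 95% level. Chance gives about 1 in 20 such sets, and groups of 3, the UC2288 Cre- libraries among them, were not examined. UC2288 Cre+ replicate 2 was highest for Fkbp5 at 143 CPM, and vehicle Cre- replicate 5, the library with red blood cell transcripts, was highest for Ddit4 at 42.9 CPM. BLZ945 Littman tamoxifen replicate 4 was highest for Tsc22d3 at 128 CPM, the same library that led its table for Fkbp5 and Ddit4. Adult-titled Jung tamoxifen replicate 2 was highest for Fkbp5 at 252 CPM and postnatal Jung tamoxifen replicate 2 for Tsc22d3 at 63.2 CPM. Lowest of their groups were adult Littman oil replicate 4 for Fkbp5, at 61.2 CPM, and postnatal Jung oil replicate 1 for Sgk1, at 539 CPM.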

How the results depend on the processing

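The alternatives were DESeq2, RLE size factors, no low-count filter, only the groups compared, a replicate block or any library left out. In the fits that held it, no member reversed direction together with a call under them. Some members fell below the low-count filter in part of these fits and could not be compared there. Pim1 passed under all of them in both tamoxifen comparisons of vehicle pups. In the contrast that chose the members, given with no test, the log2 fold change with 1 library left out ran from 1.99 to 2.65 for Pim1, -0.22 to 2.70 for Fkbp5 and -0.24 to 3.53 for Ddit4; the lowest of each was without UC2288 Cre- replicate 1. Postnatal Littman gave 2 members by edgeR, 0 by DESeq2, 0 with only its 2 groups, and 0 to 2 with 1 library left out. BLZ945 Littman gave 0, 2 without the filter, and 0 to 2 with 1 library left out; leaving out tamoxifen replicate 1 gave both. The cause of these changes was not tested.

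Over all genes, UC2288 against vehicle in Cre+ pups gave 36 calls, but 140 by DESeq2, 21 with RLE, 132 without the filter, 2 with only the groups compared, 47 with a replicate block, and 1 to 266 with 1 library left out; without UC2288 Cre- replicate 1, a setting chosen after seeing the data, it gave 61, and Fkbp5 an adjusted p of 0.0824 at the same log2 fold change of 1.34. Counts over all genes elsewhere moved by more than 1.5 times where they were small: postnatal Jung 6, but 15 without the filter, 12 with only its groups, 11 with the block and 2 to 8 with 1 library left out; BLZ945 Littman 3, but 5 by DESeq2, 44 without the filter, 7 with only its groups, 1 with the block and 1 to 13; adult Littman 1, but 10 without the filter, 2 with the block and 0 to 7; adult-titled Jung 0, but 6 without the filter; UC2288 Cre- 1, but 36 without the filter and 0 to 45.

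Libraries with the same replicate number did not deviate together (correlations from -0.36 to 0.34 over the comparisons), so the numbers were not treated as pairs; the block left the number of members called at 0 with UC2288 in Cre+ pups, 1 in each tamoxifen comparison of vehicle pups and 2 in postnatal Littman pups. Limits: members below 20 CPM rest on a few counts per library, 3 libraries in a group let 1 decide a mean, and in simulated data of the UC2288 Cre+ comparison 80.0% of genes changed 3-fold and 5.43% of those changed 1.5-fold were recovered, among 4595 genes. The simulated counts took their spread from expression level alone and held no stray library. Recovery in the real libraries can therefore be lower.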
